A study of Mus musculus with 6 samples.

Results

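Albumin, transthyretin and 8 other proteins that the liver secretes to carry small molecules in blood plasma, or to serve there as inhibitors and hormone precursors, were followed as mRNAs in cultured fetal hepatocytes. The genes were chosen by name, with earlier results of these data known. Each was read from the probe set that names it alone and has the highest mean. The platform annotation used here named a probe set for 9 of the 10 genes (Alb, Ttr, Ahsg, Fetub, Rbp4, Agt, Azgp1, Serpina6 and Ambp), among 18193 genes in all, and none for Gc, the vitamin D-binding protein, which was therefore not analysed here. All 9 were brighter than the array median on all 6 arrays, so that none entered the test through one genotype only.

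The hepatocytes came from livers of embryonic day 16.5 and carried either the Cnot3KO genotype, in which a floxed Cnot3 is deleted by Cre driven from the promoter of Alb, itself one of the carriers, or a control genotype that the labels call wild type. The methods allow floxed mice without Cre and Alb-Cre mice with at least one normal Cnot3 allele as controls, so which of these genotypes the control cells had, and whether they carried Cre, is not given in the sources used here. Total RNA was taken at 0, 6 or 12 h of actinomycin D (ActD), which blocks transcription, with 1 array for each genotype and time and no replicates. Both genotypes had been cultured with oncostatin M and dexamethasone, which promote hepatic differentiation. In the Cnot3KO cultures Cnot3 was lost as Cre was expressed. The authors describe it as efficiently suppressed by the culture day at which they compared the genotypes.

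These carriers are textbook products of the differentiated hepatocyte. Their mRNAs are driven by liver-enriched transcription factors and encode proteins with a signal peptide that passes them to the secretory pathway. Cnot3 is a subunit of the Ccr4-Not machinery that trims the poly(A) tail of mRNAs and so promotes their decay. The comparisons address which carrier mRNAs differed in abundance without Cnot3 and whether they changed differently once transcription had stopped. Values are intensities on a linear scale, relative within each array, so that an apparent gain under ActD is relative to the other mRNAs. Over all 16499 genes tested, the median change over 12 h was 0.15 (log2) in control and 0.08 in Cnot3KO cells. Only a gain above that median means a slower loss than that of most genes. Differences are given as log2 of Cnot3KO minus log2 of control.

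To place the measured genes beside their promoters, the 80 bases before the annotated start are shown for 6 of them. They are a gene whose genotypes overlapped (Alb), one lower at each time by a smaller difference (Ambp, -0.27 over the 3 times) and the 4 with the largest lower values (Ahsg, Fetub, Agt and Azgp1). Ambp was nevertheless the lowest of the 213 probe sets with a mean intensity over 16384. Among the 585 over 8192 it ranked 70 from the lowest. The windows are RefSeq sequences of build GRCm38.p6, written 5′ to 3′ on the strand of the gene, and for Fetub that of the upstream of 2 annotated starts is given. Capitals mark matches on either strand to the motif GTTAAT, which is part of the Hnf1 recognition sequence, to the motif TATAAA of the promoter element that binds TBP, to the motif CCAAT bound by NF-Y, and to TTGCNNAA, a form of the site recognised by C/EBP proteins. A match is a description of the letters and not of a factor bound there.
Alb, chr5:90460790-90460869, plus strand: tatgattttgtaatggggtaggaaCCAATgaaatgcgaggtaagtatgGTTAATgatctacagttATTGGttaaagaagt
Ambp, chr4:63154173-63154252, minus strand: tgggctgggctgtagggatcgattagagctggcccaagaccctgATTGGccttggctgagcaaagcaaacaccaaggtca
Ahsg, chr16:22891935-22892014, plus strand: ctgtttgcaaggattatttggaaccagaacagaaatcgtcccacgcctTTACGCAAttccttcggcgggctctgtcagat
Fetub, chr16:22918302-22918381, plus strand: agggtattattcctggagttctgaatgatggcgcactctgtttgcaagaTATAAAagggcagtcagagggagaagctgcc
Agt, chr8:124569707-124569786, minus strand: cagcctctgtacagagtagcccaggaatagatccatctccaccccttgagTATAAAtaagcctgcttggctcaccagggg
Azgp1, chr5:137981441-137981520, plus strand: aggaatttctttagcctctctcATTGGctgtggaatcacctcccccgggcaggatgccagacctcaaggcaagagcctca

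The TATAAA motif began 31 and 30 bases before the start of Fetub and Agt, and such a window holds it on either strand at 4.75% of 32851 annotated starts. Alb held CCAAT 56 bases and its complement 15 bases before the start, and Ambp and Azgp1 held the complement 36 and 58 bases before it (15.3% of all starts hold the motif). GTTAAT (1.96% of starts) was matched in Alb, 32 bases before the start, and TTGCNNAA (2.56%) in Ahsg, on the opposite strand. No motif was matched in all 4 genes with the largest lower values.

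In the plots by time, Alb and Ttr were the flattest. Albumin, the main protein of plasma and a carrier of fatty acids, bilirubin and drugs, had intensities of 34185, 33652 and 34977 in Cnot3KO cells at 0, 6 and 12 h, against 35595, 33707 and 35070 in control cells. The groups overlapped, and the difference over the 3 times was -0.02 ± 0.14 (log2 and SE, limma adjusted p = 0.917), with a 95% interval of -0.36 to 0.31. Alb was the brightest probe set of the whole array on 5 of the 6 arrays and the second brightest in control cells at 6 h. Transthyretin, the carrier of thyroxine and of the retinol-binding protein, had intensities of 31484, 31569 and 32483 in Cnot3KO cells, against 32863, 29852 and 33307 in control cells, with a difference of -0.01 ± 0.14 (limma adjusted p = 0.978, interval -0.35 to 0.33). The Ttr set ranked between 3 and 11 among 45037 probe sets. Its other 3 probe sets had mean differences between -0.05 and 0.08, and none of the 4 is of the kind designed to match a single transcript.

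**Figure D1:**
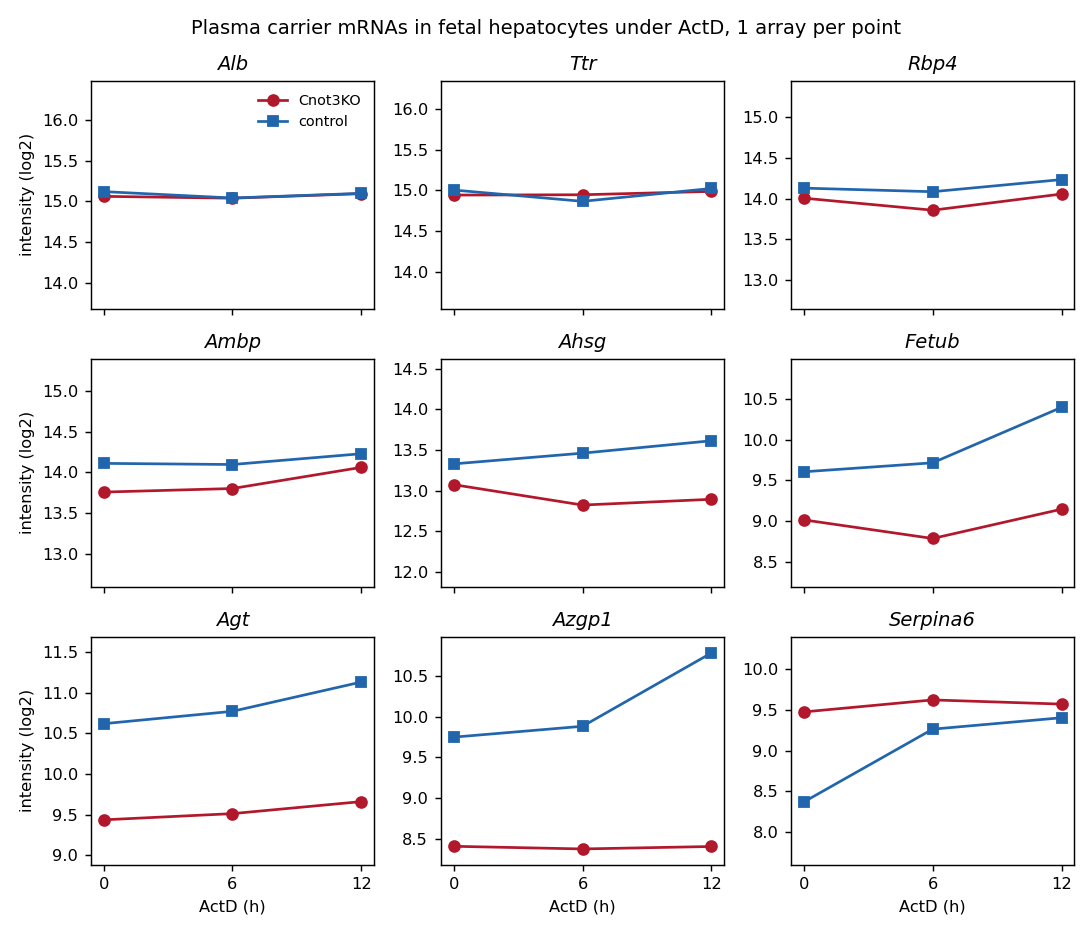
Log2 intensity (vertical axes, each spanning the same range) of 9 carriers against hours of ActD (horizontal axes) in Cnot3KO cells (red circles) and control cells (blue squares), 1 array per point. Alb and Ttr overlap between the genotypes, 6 carriers lie lower in Cnot3KO cells at all 3 times, and Serpina6 lies higher.

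These sets sit at the bright end of the array, where the equalising of distributions between arrays ties a value to its rank and probes may saturate. Among the 213 probe sets with a mean intensity over 16384, the central 95% of mean genotype differences ran from -0.18 to 0.28, whereas among the 3234 sets between 1024 and 4096 it ran from -0.98 to 1.33. Ambp, at -0.27, was the lowest of the 213, but its mean intensity of 16479 lies just over that bound. Among the 585 probe sets over 8192 it ranked 70 from the lowest. The central 95% of the 1120 sets between 4096 and 16384 ran from -0.685 to 0.975. The values of Alb, Ttr, Rbp4 and Ambp are therefore read where differences spanned a narrower range. Whether a larger difference in their mRNAs is hidden there was not tested.

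**Figure D2:**
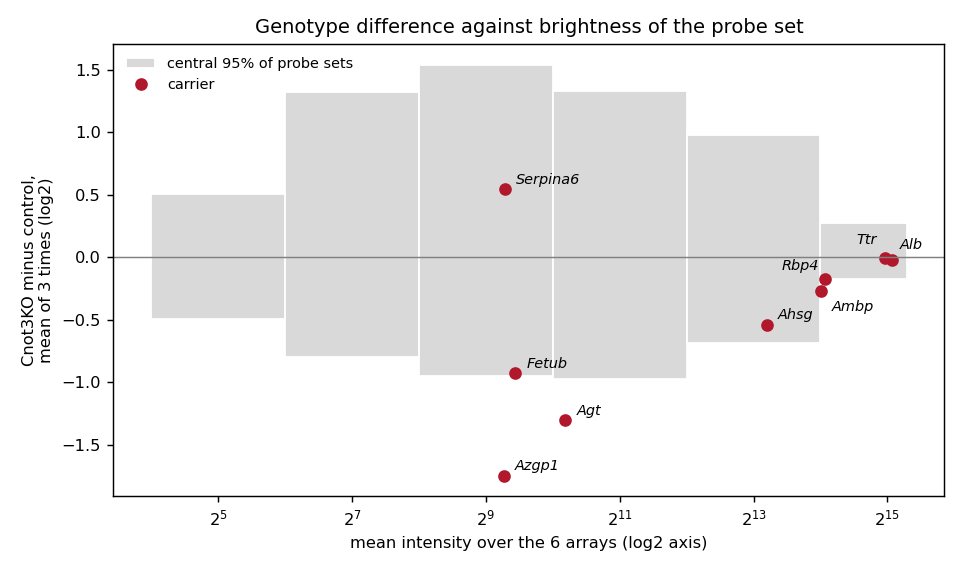
Mean genotype difference over the 3 times (Cnot3KO minus control, log2, vertical axis) against the mean intensity of the probe set over 6 arrays (horizontal axis, log2) for 9 carriers (red points), with grey boxes for the central 95% of all probe sets in 6 ranges of brightness. The boxes narrow to -0.18 and 0.28 above an intensity of 16384, where Alb, Ttr and Rbp4 lie near or inside the box. Agt and Azgp1 fall below the boxes of their ranges. Ambp does too, but lies just over the 16384 bound, and at -0.27 is within the box of the next lower range (-0.685 to 0.975).

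Rbp4 and Ambp, also bright, were somewhat lower in Cnot3KO cells at each time. Rbp4, which carries retinol from the liver, had intensities of 16468, 14861 and 17060 in Cnot3KO cells, against 17939, 17399 and 19294 in control cells. Ambp, whose precursor is cleaved into the lipocalin alpha-1-microglobulin and the protease inhibitor bikunin, had intensities of 13838, 14267 and 17085 in Cnot3KO cells, against 17676, 17505 and 19189 in control cells. For both genes the highest Cnot3KO value lay below the lowest control value, but the differences of -0.18 ± 0.14 for Rbp4 and -0.27 ± 0.14 for Ambp did not pass (limma adjusted p = 0.389 and 0.224).

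The fetuins Ahsg and Fetub, cystatin-related glycoproteins, were lower by more. Ahsg, the main fetuin and an inhibitor of calcium phosphate deposition, had intensities of 8621, 7243 and 7609 in Cnot3KO cells, against 10289, 11274 and 12530 in control cells. Fetub, which inhibits the ovastacin protease of the egg, had intensities of 516, 441 and 566 in Cnot3KO cells, against 778, 840 and 1347 in control cells. In both genes the distance between the genotypes was wider at 12 h than at 0 h. Ahsg was 1.19-fold lower in Cnot3KO cells at 0 h and 1.65-fold lower at 12 h, and Fetub 1.51-fold and 2.38-fold lower. Over the 3 times the differences were -0.54 ± 0.16 for Ahsg and -0.92 ± 0.18 for Fetub, neither of which passed (limma adjusted p = 0.0843 and 0.0538).

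The lowest relative values were those of Agt and Azgp1. Agt encodes angiotensinogen, the precursor that renin cleaves to form the angiotensins. Its intensities were 693, 731 and 810 in Cnot3KO cells, against 1573, 1749 and 2245 in control cells. Azgp1, zinc-alpha-2-glycoprotein, is related to class I antigen-presenting molecules and promotes lipolysis. Its intensities were 339, 332 and 339 in Cnot3KO cells, against 861, 944 and 1764 in control cells. In both genes every Cnot3KO value lay below every control value, by 2.27-fold for Agt and 2.54-fold for Azgp1 at 0 h and by 2.77-fold and 5.21-fold at 12 h. Agt differed by -1.30 ± 0.14 and Azgp1 by -1.74 ± 0.23 over the 3 times, and both passed the test among all genes, each with a limma adjusted p of 0.0499. Both p-values lie just under the threshold of 0.05 and passed it no longer under 8 of 12 alternatives, among them the fits without the 6 h arrays (limma adjusted p = 0.368 for each) and without the 12 h arrays (0.0578 and 0.0540).

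Serpina6 went the other way. It encodes transcortin, the serpin that carries glucocorticoids in plasma, and the medium of both genotypes contained the glucocorticoid dexamethasone. Its intensities were 711, 788 and 760 in Cnot3KO cells, against 330, 614 and 677 in control cells. All Cnot3KO values lay above all control values, but they were 2.15-fold higher at 0 h, 1.28-fold at 6 h and 1.12-fold at 12 h. Over the 3 times it was 0.54 ± 0.22 and did not pass (limma adjusted p = 0.145), and the control array at 0 h stood apart as the lowest of the 6 values. Without the 0 h arrays the difference was 0.26.

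**Figure D3:**
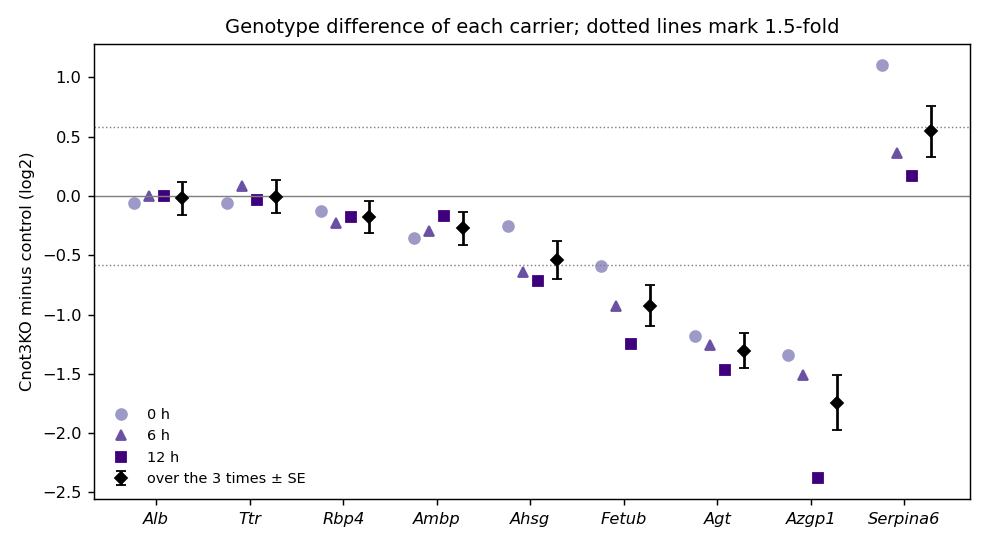
Cnot3KO minus control (log2, vertical axis) for each of 9 carriers at 0 h (circles), 6 h (triangles) and 12 h (squares) of ActD, with the estimate over the 3 times and its SE from limma (black diamonds). With 1 array per genotype and time, differences widen with time for Ahsg, Fetub, Agt and Azgp1 and shrink for Serpina6, while Alb and Ttr stay near 0.

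Before ActD, 3 of the 9 carriers (Fetub, Agt and Azgp1) were over 1.5-fold lower in Cnot3KO cells and 1 (Serpina6) over 1.5-fold higher, against 2.99% and 6.87% of 16110 genes. Fetub, at 1.51-fold, lay just past that fold and was under it when arrays were centred on their medians or 16 was added to the intensities. The median difference of the carriers was -0.26, against 0.03 over the 16499 genes tested on all arrays, and 8 of 9 lay below 0, among them Alb and Ttr at -0.06 each, against 45.3% of all genes. For a single gene, the SD of this difference between probe sets read on the same RNA was 0.24 over 4117 genes, which covers measurement noise and not the variation between cultures. Over the 3 times, 2 carriers were lower and 0 higher after adjustment over all genes, against 0.285% and 0.703% of genes. At an unadjusted p under 0.05 in limma, 4 were lower (Ahsg, Fetub, Agt and Azgp1) and 1 higher (Serpina6), against 11% and 22.4% of genes. For 6 carriers all 3 Cnot3KO values lay below all 3 control values and for 1 above, which held for 12% and 15.9% of genes. The test uses the 3 times as pairs, so its p-values measure agreement between times and not between embryos, and RNA at 6 and 12 h includes what was left from 0 h.

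Under ActD, Azgp1, Serpina6 and Fetub gained relative to the other mRNAs in control cells and much less in Cnot3KO cells. At 12 h Azgp1 was 0.998-fold its 0 h level in Cnot3KO cells and 2.05-fold in control cells. Serpina6 was 1.07-fold higher at 12 h than at 0 h in Cnot3KO cells and 2.05-fold in control cells, and Fetub 1.10-fold in Cnot3KO and 1.73-fold in control cells. Of the 9 carriers, 0 in Cnot3KO and 3 in control cells were over 1.5-fold higher at 12 h, against 9.72% and 18.9% of genes. Azgp1 and Fetub gained mainly between 6 and 12 h, so their gain rests largely on the single control array at 12 h. Serpina6 had gained 0.90 (log2) in control cells by 6 h, which rests largely on the low value of the single control array at 0 h.

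Agt was 1.17-fold higher at 12 h than at 0 h in Cnot3KO and 1.43-fold in control cells. Ahsg went opposite ways, with a change of -0.18 (log2) in Cnot3KO cells and 0.28 in control cells. Ambp changed by 0.30 in Cnot3KO cells, against 0.12 in control cells. The medians over all genes were 0.08 in Cnot3KO and 0.15 in control cells. Alb, Ttr and Rbp4 changed by at most 0.11 in either genotype.

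**Figure D4:**
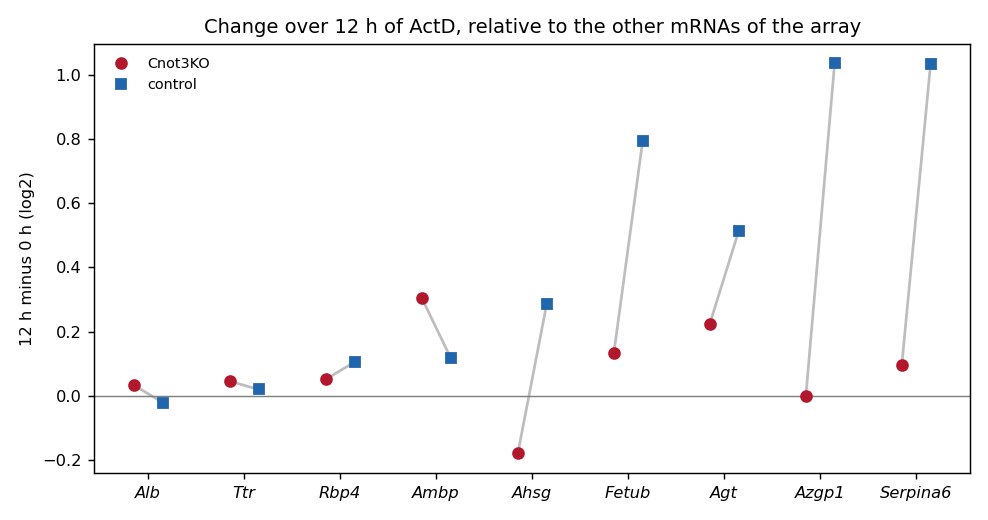
Change in intensity over 12 h of ActD (12 h minus 0 h, log2, vertical axis) for each of 9 carriers in Cnot3KO cells (red circles) and control cells (blue squares), 1 array per genotype and time. In control cells Azgp1 and Serpina6 gained 1.04 each and Fetub 0.79, while in Cnot3KO cells no carrier gained more than 0.30.

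No carrier changed over both genotypes at 12 h by the test (limma, 0 past the adjusted threshold and 0 at an unadjusted p under 0.05), where 2.24% of genes were higher and 4.53% lower after adjustment and 14% and 15.8% at an unadjusted p under 0.05. The difference in slope over 12 h, Cnot3KO minus control, was -1.04 ± 0.38 for Azgp1, -0.94 ± 0.38 for Serpina6, -0.66 ± 0.39 for Fetub, -0.46 ± 0.29 for Ahsg and -0.29 ± 0.28 for Agt. None passed (limma adjusted p between 0.250 and 0.614 for these 5), nor did any of all genes in either direction (0% each). At an unadjusted p under 0.05 in limma, Azgp1 and Serpina6 lay below 0 and no carrier above, against 4.95% and 12.8% of genes. The median slope difference was -0.29 over the carriers and -0.04 over all genes. In data simulated with independent noise at the variances that limma had estimated, this test recovered 5.71% of slope differences of 1 (log2) and 71.4% of those of 2. Differences of the size seen here were mostly below what it could call in that setting. Whether these shares hold for the arrays, where no gene passed, was not tested, and they may be too high.

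Over the 6 arrays the profiles of Ahsg, Fetub, Agt and Azgp1 ran closely together, with Pearson's r between 0.943 and 0.986 between any pair, while Serpina6 had an r between -0.601 and -0.235 with the other 8 carriers. These are 6 points that share 2 genotypes and 3 times, given as a description. The 5 genes most like the mean carrier profile, out of 10509 candidates above the array medians, were Boc, Bbox1, Ttll11, Egfr and Syndig1, with r between 0.9935 and 0.9973. Bbox1 encodes the last enzyme of carnitine synthesis and Egfr the epidermal growth factor receptor. Egfr had intensities of 255, 235 and 270 in Cnot3KO cells, against 326, 401 and 506 in control cells. Its rise in control cells follows from its choice by likeness to a mean profile that rises there.

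The relatives of the carriers were read the same way. In the albumin family, which arose by gene duplication, Alb is followed on its chromosome by Afp and Afm. Afp, the fetal counterpart of albumin, was also at the top of the array, with 33569, 32444 and 33796 in Cnot3KO cells, against 34461, 31699 and 32966 in control cells. Afm, afamin, which binds vitamin E, had intensities of 863, 775 and 860 in Cnot3KO cells, against 1626, 1584 and 2805 in control cells. Afm thus overlapped in no value and differed by -1.22 ± 0.20, which did not pass (limma adjusted p = 0.0526).

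Ahsg and Fetub lie side by side and are followed by Hrg, Kng2 and Kng1, further members of the cystatin superfamily. Kng1, the kininogen that releases bradykinin, had intensities of 7795, 6501 and 8414 in Cnot3KO cells, against 12391, 10345 and 13554 in control cells. Hrg, histidine-rich glycoprotein, was 1.63-fold lower over the 3 times. Neither of the 2 passed among all genes (limma adjusted p = 0.0541 for Kng1 and 0.0635 for Hrg). Both were lower at an unadjusted p under 0.05 in limma, which held for 11% of all genes. Kng2 was not measured.

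The heavy chains Itih1, Itih2 and Itih3 are joined to the bikunin part of Ambp, whereas Itih4 is a relative without that link. All 4 were lower in Cnot3KO cells at an unadjusted p under 0.05 in limma, against 11% of all genes. After adjustment, where 0.285% of genes were lower, Itih3 and Itih4 passed (-1.39 ± 0.16 and -1.24 ± 0.15, limma adjusted p = 0.0499 each). Itih3 had intensities of 2524, 1913 and 1910 in Cnot3KO cells, against 5834, 4653 and 6145 in control cells. The difference of Ambp was -0.27, read at an intensity where the differences of all probe sets spanned a narrower range. No test set it against those of the heavy chains, and the part of brightness in it was not tested.

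Of 7 measured clade A serpins, the family of Serpina6 and of Agt, 2 were lower and 0 higher after adjustment, against 0.285% and 0.703% of all genes. They were Serpina7, which carries thyroxine (-1.30 ± 0.18), and Serpina11 (-1.08 ± 0.15, limma adjusted p = 0.0499 and 0.04998). Serpina7 had intensities of 264, 303 and 406 in Cnot3KO cells, against 813, 579 and 1031 in control cells, the opposite direction to Serpina6. Serpina3n, an acute phase inhibitor of proteases, was lower by more (-1.35 ± 0.20) but did not pass (limma adjusted p = 0.0526). As for Agt and Azgp1, none of these calls was kept under 8 of the 12 alternatives, where 0 genes passed.

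Among 6 lipocalins and 4 metal and haem carriers none passed in either direction (limma, 2 lower in each list and 0 higher at an unadjusted p under 0.05, against 11% and 22.4% of all genes). Orm1, an acute phase drug-binding lipocalin, differed by -1.56 ± 0.25, Lcn2, which binds bacterial siderophores, by -0.76 ± 0.14 and Ptgds by -0.38 ± 0.21. Hp, which captures free haemoglobin, differed by -0.72 ± 0.14, the copper protein Cp by -0.63 ± 0.15 and the haem carrier Hpx by -0.32 ± 0.14. Orm1 had intensities of 109, 119 and 119 in Cnot3KO cells, against 222, 316 and 557 in control cells, with a gain under ActD in control cells as in Azgp1. The median difference over the 3 times was -0.28 over the lipocalins and -0.48 over the metal and haem carriers, against -0.03 over all genes.

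The receptors, enzymes and other partners of the carriers showed no common direction. Of 13 measured, 0 passed and 1 was lower and 3 higher at an unadjusted p under 0.05 in limma, close to the 11% and 22.4% of all genes, with a median difference of -0.06. Enpep, the aminopeptidase that processes angiotensin, differed by -1.30 ± 0.25. Cyp2r1, the vitamin D 25-hydroxylase, differed by 1.06 ± 0.18 and Nr3c1, the glucocorticoid receptor, by 0.86 ± 0.25. Cyp2r1 was dim, with intensities of 55, 40 and 52 in Cnot3KO cells, against 31, 21 and 19 in control cells. All lay below the array medians, and the control values at 6 and 12 h below the 20th percentile of their arrays. Nr3c1 had intensities of 983, 491 and 611 in Cnot3KO cells, against 759, 311 and 207 in control cells.

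Markers of several cell types differed beside these values. Hepatocyte markers without the carriers (14 measured, 13 above the array median on all 6 arrays, Asgr1 below it) summed to between 153100 and 160600 in Cnot3KO cells and to between 147000 and 160200 in control cells. That sum is carried by probe sets with a mean intensity over 16384 (Apoa1, Fgb, Krt8 and Krt18), where differences spanned a narrower range, and its members went both ways. Cps1, the first enzyme of the urea cycle, was 3.35-fold lower in Cnot3KO cells and passed (limma adjusted p = 0.0499), and the other 13 did not, among them Serpinc1 at -0.64, Apoh at -0.46, Krt18 at 0.47 and Hnf4a at 0.52. The sums of 5 cholangiocyte markers were higher, at 31630 to 37850 in Cnot3KO and 18160 to 21820 in control cells. They rest on Krt19, Krt7 and Cldn4, of which Cldn4 passed (1.72 ± 0.24, limma adjusted p = 0.04998), while Krt7, Sox9 and Epcam overlapped between the genotypes. The sums of 8 stellate cell and fibroblast markers were lower, at 8664 to 13780 in Cnot3KO and 17470 to 18660 in control cells. They consist mostly of Col1a2, Acta2 and Col3a1. None of the 8 passed, and 5 were lower and 0 higher at an unadjusted p under 0.05 in limma, against 11% and 22.4% of all genes. Col3a1, Pdgfrb and Reln overlapped between the genotypes. The sums of 9 macrophage markers, all above the array median on all arrays, were 13320 to 16360 in Cnot3KO and 14870 to 17750 in control cells. They consist mostly of Lyz2 and Csf1r, which differed by -0.05 and -0.31. Mrc1, the mannose receptor, and Vsig4, a complement receptor, were lower by the test (-1.51 and -1.32, limma adjusted p = 0.04998 and 0.0499). Cd68 and Cd14 lay above 0, at 0.10 and 0.17. Of the 9 macrophage markers, 4 were lower and 0 higher at an unadjusted p under 0.05 in limma, against 11% and 22.4% of all genes. The marker genes named here were picked after their values were seen, and their calls too were lost under the 8 alternatives where 0 genes passed. The sums of 3 megakaryocyte markers were 1839 to 2218 in Cnot3KO and 2538 to 4106 in control cells. In the same order of genotypes, they were 354 to 369 and 441 to 465 for 5 erythroid markers, 427 to 933 and 619 to 1409 for 7 endothelial markers (Pecam1 and Tek below the median throughout), and 20890 to 23960 and 21890 to 23830 for 6 leukocyte markers. Fewer cells of a type and less RNA per cell cannot be told apart in these arrays, and the part of the cell mixture in the carrier differences was not tested.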

How the data were processed

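Total RNA of fetal hepatocytes, 1 array per genotype and time, had been hybridised to Affymetrix arrays. The authors summarised probes by RMA, in a version that is not given in the sources used here, and the deposited table holds linear intensities of 45037 probe sets, of which log2 was taken. The array medians lay between 69.7 and 72.4. Depth is not defined for arrays, and their number limits the precision. Of the probe sets, 34945 carried 1 symbol, 932 several and 9160 none, and those with several or none named no gene. Symbols were updated through RefSeq (GRCm38.p6), where 99.4% of gene identifiers matched. The probe set with the highest mean stood for each gene. Genes over the 20th percentile of an array on at least 1 array compared were tested (16499 genes, or 16110 at 0 h).

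Differences at 0 h carry no test. The effect of genotype on all 6 arrays was fitted with limma 3.58.1 (R 4.3.3) with genotype and time as terms, the change at 12 h in the same fit, and the slope difference as genotype by hours, each with 2 residual degrees of freedom and Benjamini-Hochberg adjustment over all genes at 0.05. On data for the 16499 genes simulated with independent noise at the estimated variances, the genotype term recovered 71.4% of differences of 1 (log2). It recovered 98.6% of those of 2, with 12 false calls. On the arrays a difference as large as that of Orm1 (-1.56) did not pass, so these shares may be too high for them. Named genes were all carriers, up to 3 of each related list with the largest difference over the 3 times, and the 5 genes most like the mean profile. The carriers and lists were chosen with earlier results of these data known. Alternatives comprised other filters, probe set choices, scalings, a pseudocount, models and sets of arrays.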

Additional observations from a re-analysis of the deposited data

Results flagged for a closer look

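The changes of 2 carriers under ActD ran in opposite directions in the genotypes at both later times. Ahsg had log2 changes from 0 h of -0.25 and -0.18 in Cnot3KO cells at 6 and 12 h, against 0.13 and 0.28 in control cells. Azgp1 had changes of -0.0326 and -0.00248 in Cnot3KO cells, which are close to 0, against 0.13 and 1.04 in control cells. The difference in slope did not pass the test for either gene (limma adjusted p = 0.435 for Ahsg and 0.250 for Azgp1).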

How the results depend on the processing

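The count of 2 carriers lower over the 3 times was 0 with no filter, with the filter at the 50th percentile, with centring on array medians or ribosomal protein genes, with a pseudocount of 16 and with genotype as the only term. Leaving out the arrays of one time gave 4 without 0 h and 0 without 6 h or 12 h. All 163 genes called became 0 under these same settings except without 0 h (5809), and 1625 with the mean of probe sets, 649 without probe sets of shared sequence and 1756 with hours as a number. Unadjusted, 5517 genes had p under 0.05 (2187 without 6 h, 3529 without 12 h, 3453 with genotype alone, the others within 1.5 times). The cause was not tested. Ahsg, Fetub, Agt and Azgp1 stayed lower and Serpina6 higher in every fit that measured them. Estimates near 0 turned sign: Alb to 0.0163 (array medians) and 0.00134 (ribosomal protein genes), Ttr to 0.0154 (mean of probe sets), 0.0320 (array medians), 0.0171 (ribosomal protein genes), 0.0223 (without 0 h) and 0.00941 (without 12 h), and the Rbp4 slope difference to 0.00829 (ribosomal protein genes). Without shared-sequence probe sets Ttr, Ahsg and Fetub had no value. Slope differences without one time have no residual degrees of freedom and were not tested. No paired analysis was possible because, with 1 array per group, no replicate number links samples. The fits already match the genotypes at each time through the time term, and genotype as the only term is the fit without that matching. Signal at the top of the array limits Alb and Ttr.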
